A study of Mus musculus with 4 samples.

Results

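Genes of retinoid synthesis, binding and reception were examined in endothelial cells (ECs) sorted from the dura mater, the membrane under the skull, and from the brain parenchyma. The 9 genes were taken by symbol from the 23282 entries of the count tables, because the meninges are a source of retinoic acid: Rbp4, Stra6, Aldh1a1, Aldh1a2, Crabp2, Rara, Rarb, Rxra and Cyp26b1. All 9 symbols stood on a single line of each table. They were compared between 2 libraries of brain parenchyma ECs and 2 of dura mater ECs. Both groups came from C57BL/6J mice at 8 weeks of age, with no transgene, injury or treatment in the labels, and the study used male mice. The study set dural against brain ECs to find genes that set the dural vessels apart. Cells were sorted for CD31 and against CD45 and TER-119, and brain ECs alone were first enriched on magnetic beads, so that tissue and enrichment cannot be told apart. The number of mice behind a library is not given in the sources used here, so the spread between libraries may be technical.

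Retinol, or vitamin A, travels in blood bound to the carrier that Rbp4 encodes and enters cells through the receptor encoded by Stra6. Retinol dehydrogenases turn it into retinal, and the retinal dehydrogenases of the Aldh1a family turn retinal into retinoic acid, which Crabp2 carries to the nucleus. There, retinoic acid receptors such as those encoded by Rara and Rarb act as dimers with retinoid X receptors such as that of Rxra, and Cyp26 enzymes break retinoic acid down. Fibroblasts of the meninges are known for making retinoic acid, and Stra6 is known from the vessels of the blood-brain barrier.

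Retinoic acid receptors bind repeats of a short hexamer (6 bases), and sequences near gene starts are shown here because 1 member, Rarb, carries such a repeat. Promoter windows from RefSeq (build GRCm38.p6, 250 bases before to 50 bases after an annotated start) were found for 8 of the 9 genes, 17 windows in all, some of which overlap. Crabp2 had no entry. They were searched on both strands for the hexamers AGGTCA or GGGTCA or AGTTCA or GGTTCA, and for direct repeats of 2 of these with 1, 2 or 5 bases between them. At least 1 hexamer stood in 7 of the 17 windows (41.2%), against 43.7% of all 32851 windows of that length. A direct repeat with 5 bases between was found in 1 of the 17, that of Rarb, and in 0.0974% of all windows (0.222% and 0.268% held repeats with 1 and 2 bases between). The Rarb repeat began 53 bases before the start, on the strand of the gene, and reads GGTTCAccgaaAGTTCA. The single Cyp26b1 window held no hexamer, and of the 4 windows of Stra6 only that of start 3 held 1. Below, capitals mark the hexamers.
Rarb, chr14:16575427-16575726, minus strand: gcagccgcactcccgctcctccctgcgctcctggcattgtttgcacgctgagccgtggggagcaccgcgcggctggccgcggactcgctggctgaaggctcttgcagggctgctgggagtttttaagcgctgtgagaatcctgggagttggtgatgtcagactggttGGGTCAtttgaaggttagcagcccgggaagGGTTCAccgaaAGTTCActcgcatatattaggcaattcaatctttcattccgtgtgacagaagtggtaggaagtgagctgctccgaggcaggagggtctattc
Cyp26b1, chr6:84593761-84594060, minus strand: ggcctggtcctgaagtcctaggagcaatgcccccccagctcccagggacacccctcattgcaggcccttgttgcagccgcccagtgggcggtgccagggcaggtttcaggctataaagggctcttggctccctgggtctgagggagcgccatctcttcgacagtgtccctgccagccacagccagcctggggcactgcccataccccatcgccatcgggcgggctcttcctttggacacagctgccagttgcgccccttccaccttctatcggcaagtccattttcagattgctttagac
Stra6, start 3, chr9:58133825-58134124, plus strand: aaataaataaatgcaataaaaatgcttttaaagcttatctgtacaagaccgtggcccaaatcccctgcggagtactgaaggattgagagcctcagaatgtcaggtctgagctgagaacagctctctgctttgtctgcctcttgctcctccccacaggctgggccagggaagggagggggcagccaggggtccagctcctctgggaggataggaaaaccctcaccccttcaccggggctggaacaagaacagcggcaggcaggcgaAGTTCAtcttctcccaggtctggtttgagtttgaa
These matches describe letters in a window, and binding was not measured.

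The libraries held 13518973 to 16096203 counts. Within the brain pair, 31.3% of the symbols with at least 64 counts in either library had 7 or fewer in the other, and within the dura mater pair 30.7% did, so that a gene counted in a single library of a pair was common. The common coefficient of variation between replicates was 1.39, and dura mater replicate 2 had a count for more symbols (11803) than the other libraries (9350 to 10246). All 11 endothelial genes listed were above 3 counts in every library. Their summed level was 10353 and 12774 CPM (counts per 1000000 counts of a library, after TMM scaling) in the brain and 9088 and 11563 CPM in the dura mater libraries. Despite the sort against TER-119, the 5 erythroid genes listed summed to more than these in the brain libraries, 18013 and 25692 CPM. In the dura mater libraries they summed to 1496 and 762 CPM. Ptprc, the CD45 gene, had at most 4 counts in any library. Other leukocyte genes varied: Cd68 had 4 and 3 counts in brain ECs against 550 and 441 in dura mater ECs. Csf1r had 4 and 646 against 28 and 9, C1qa 436 and 1 against 2 and 25, and C1qb 289 and 4 against 2 and 0. Lyz2 and Cd79a had at most 9 counts in a library, S100a8 at most 25, and Cd3e and Ms4a1 had 0. In these bulk samples, fewer cells of a type and less RNA per cell cannot be told apart.

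The 9 genes fell into 3 kinds. Stra6, Rxra and Aldh1a1 were counted in both tissues, Rara and Cyp26b1 almost only in the dura mater, and Rbp4, Aldh1a2, Crabp2 and Rarb were near 0 in at least 3 of the 4 libraries. Together they held 6286 and 7560 counts in brain replicates 1 and 2 and 6324 and 7788 in dura mater replicates 1 and 2, with 3 genes at 10 counts or more in each brain library and 6 in each dura mater library. In edgeR's quasi-likelihood test Cyp26b1 rose in dura mater ECs and was the only one of the 9 genes to pass at an adjusted p under 0.05, where 0.610% of the 9347 genes tested passed. The other 4 genes tested were Stra6, Rara, Rxra and Aldh1a1, and the remaining 4 were not tested because their counts were too low. Cyp26b1 and Rara entered the test through the dura mater libraries alone, so the number of tested genes that differed says little by itself.

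**Figure D1:**
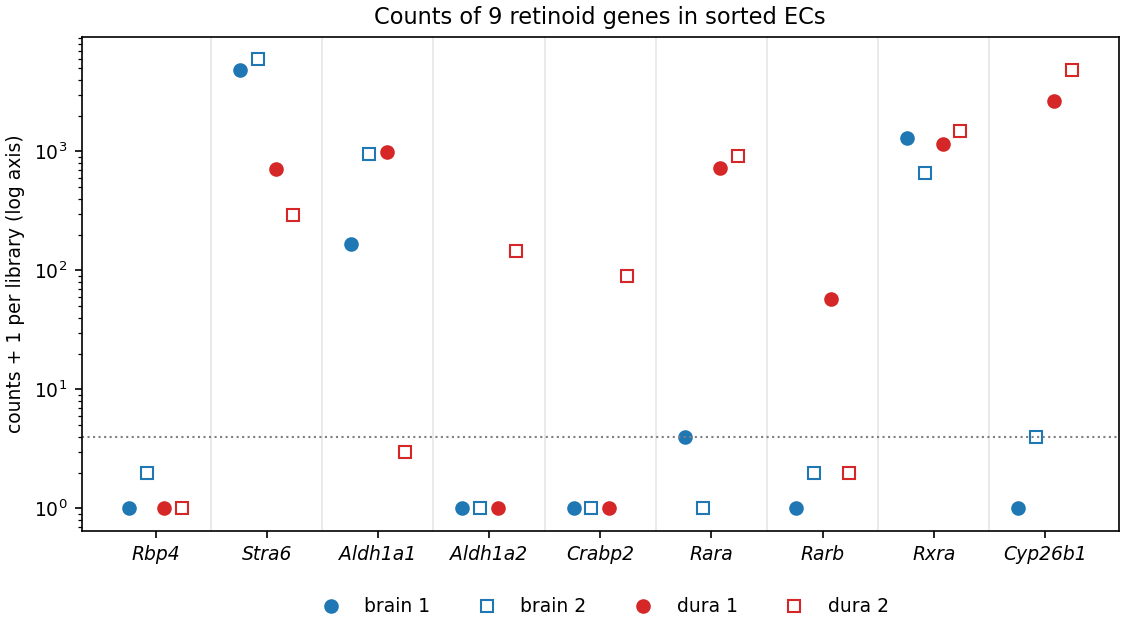
Counts plus 1 of each of the 9 genes in each library, on a log axis. Blue stands for brain and red for dura mater ECs, circles for replicate 1 and squares for replicate 2, and the dotted line marks 3 counts. Stra6 lies higher in both brain libraries, Rara and Cyp26b1 in both dura mater libraries, and Aldh1a2, Crabp2 and Rarb leave the floor in 1 dura mater library each.

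Uptake of retinol was represented by Rbp4 and Stra6. Rbp4 (chromosome 19, 38116629 to 38125281, minus strand; gene positions are from GENCODE M21, GRCm38) had 1 count in brain replicate 2 and 0 counts in the other libraries, where 3 counts, the limit that a count of 0 allows, correspond to 0.184 to 0.224 CPM. Stra6 (chromosome 9, 58063788 to 58153996, plus strand) was counted 4827 and 5949 times in brain ECs, against 717 and 293 times in dura mater ECs. These are 333 and 449.7 CPM against 53.5 and 17.9 CPM. Each brain library lay above each dura mater library, with a mean of 391 ± 82.5 CPM in the brain and 35.7 ± 25.1 CPM in the dura mater (SD, n = 2), 11.0-fold higher in brain ECs.

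Stra6 had a log2 fold change (dura mater over brain) of −3.45 (SE 0.71, edgeR adjusted p 0.148), the 340th lowest of the 9347. It missed the edgeR threshold over all genes but had an unadjusted p of 0.0024. DESeq2 gave an adjusted p of 0.000315 on the same genes. Over 16 alternatives the adjusted p ranged from 0.000109 to 0.255 with 5 under 0.05 and the log2 fold change negative in each. Of the 5 erythroid genes listed, 3 fell in the dura mater libraries past the edgeR threshold, and the 5 summed to 18013 and 25692 CPM in the brain and 1496 and 762 CPM in the dura mater. Their part in the Stra6 values was not tested.

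The genes whose profile over the 4 libraries lay nearest to Stra6 were Mkrn1, Slco1a4 and Slc7a1. Likeness was the Euclidean distance of log2(CPM + 1), each gene centred on its own mean, over 9346 other tested genes. Slco1a4, an organic anion transporter of brain vessels, lay at a distance of 0.40, counted 66518 and 72900 times in brain ECs against 7135 and 4270 times, and it fell in dura mater ECs (log2 fold change −3.67, edgeR adjusted p 0.0248). Slc7a1, a carrier of cationic amino acids, lay at 0.69, with 6409 and 7176 counts against 762 and 603. Mkrn1, which encodes a ubiquitin ligase, was nearest at 0.35, with 2590 and 2798 counts against 452 and 177.

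Retinoic acid synthesis was represented by Aldh1a1 and Aldh1a2. Aldh1a1 (chromosome 19, 20492715 to 20643465, plus strand) was counted 167 and 951 times in brain ECs, against 993 and 2 times in dura mater ECs. Its highest and its lowest value were thus both in dura mater ECs, the libraries of that pair differed 604-fold in CPM, and the groups overlapped. Brain ECs averaged 41.7 ± 42.7 CPM and dura mater ECs 37.1 ± 52.3 CPM (SD, n = 2). The log2 fold change was −0.17, with an SE of 2.45 and an edgeR adjusted p of 1.00. Its sign turned to 1.67 without brain replicate 2 and to 0.82 without dura mater replicate 2, and without dura mater replicate 1 the value was −7.34. Reads can be shared with its close paralog Aldh1a7, which is listed at 0 counts in the 4 libraries, so the values of Aldh1a1 are uncertain to that extent.

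Aldh1a2, the retinal dehydrogenase known from meningeal fibroblasts (chromosome 9, 71215789 to 71296243, plus strand), had 145 counts (8.88 CPM) in dura mater replicate 2 and 0 in each of the other libraries. Crabp2, the carrier of retinoic acid (chromosome 3, 87948666 to 87953376, plus strand), showed the same pattern, with 0 counts in 3 libraries and 88 counts (5.39 CPM) in dura mater replicate 2. Both genes thus rested on 1 dura mater library. Neither passed the filter on low counts, and fitted without that filter they had edgeR adjusted p of 0.793 each.

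Markers of fibroblasts and other stromal cells of the meninges were counted in both dura mater libraries. Of the 14 genes listed, 9 were tested and 7 of these had a log2 fold change above 0, with a median of 4.78 against −0.01 over all genes tested, and Mgp alone passed over all genes. Slc47a1 and Islr, at 0 counts in both brain libraries, entered the test through the dura mater alone, which fixes their direction. The 14 genes summed to 2976 and 2763 CPM in the brain and 11566 and 11539 CPM in the dura mater libraries. Without Mgp, which is abundant in all libraries, the sums were 444 and 544 against 605 and 609 CPM. Most of that brain sum was Foxc1, which was lower in the dura mater (6309 and 6035 counts against 2714 and 3824). Without both genes, left out with their values known, the list summed to 8.69 and 88.1 against 402 and 374 CPM. Of the 88.1 CPM of brain replicate 2, Col3a1 held 43.8, Zic1 25.9 and Dpp4 11.2 CPM. Col1a2 had 4 and 31 counts in brain ECs against 1135 and 1913, and Dcn had 16 and 15 against 1184 and 1664. Pdgfra and Lum, which mark such cells as well, had at most 4 counts in any library. Col3a1 had 63 and 579 counts in brain ECs against 1443 and 962, and Zic1 was counted mainly in a brain library (0 and 343 against 0 and 2). Single markers also differed between the dura mater replicates. Ogn had 0 and 1 counts in brain ECs against 1 and 68, and Dpt 0 and 3 against 434 and 0. Dpp4 had 19 and 148 against 0 and 140. The part of such cells in the Aldh1a2 and Crabp2 values was not tested.

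Of the receptor genes, Rara had the largest log2 fold change among those tested. Rara, the retinoic acid receptor alpha gene (chromosome 11, 98927818 to 98974942, plus strand), was counted 3 and 0 times in brain ECs, against 730 and 910 times in dura mater ECs. The dura mater libraries were close to each other, at 54.4 and 55.7 CPM, and the groups did not overlap. Over the pooled counts the ratio of dura mater to brain was 510, with an exact 95% interval of 174 to 2474 that covers counting error only. The log2 fold change was 7.83 (SE 2.70), and Rara missed the threshold over all genes (edgeR unadjusted p 0.0259, adjusted p 0.462) while it passed in DESeq2 (adjusted p 0.00106). Over 15 alternatives its adjusted p ranged from 0.00106 to 1.00, with the one of DESeq2 under 0.05, and the log2 fold change was above 0 in each.

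Rxra, the retinoid X receptor alpha gene (chromosome 2, 27676440 to 27762957, plus strand), was counted 1289 and 655 times in brain ECs, against 1160 and 1479 times in dura mater ECs. At 88.9 and 49.5 CPM against 86.5 and 90.6 CPM, the brain libraries spanned the lower dura mater library and the groups overlapped. The means of 69.2 ± 27.9 and 88.5 ± 2.89 CPM (SD, n = 2) gave a log2 fold change of 0.35, with an SE of 0.89 and an edgeR adjusted p of 1.00. This difference is smaller than the spread between the brain libraries. Without brain replicate 2 its sign turned (−0.0062).

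Rarb, the retinoic acid receptor beta gene whose promoter holds the repeat printed above, was counted 0 and 1 times in brain ECs and 56 and 1 times in dura mater ECs, so that 1 library carried its signal. It was not tested. Rarb (chromosome 14, 16430839 to 16819156, minus strand) is also uncertain as a gene: exons of Top2b on the other strand cover 34.1% of its exon length, no source used here says that strand was read in the counting, and Top2b had 3300, 2184, 1625 and 3557 counts in brain replicates 1 and 2 and dura mater replicates 1 and 2.

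Among the other receptors of these families, Rxrg had 0 counts throughout. Rarg, the gamma receptor, was counted 974 and 464 times in brain ECs and 538 and 2254 times in dura mater ECs, with overlapping groups, a log2 fold change of 0.80 (SE 1.11) and an adjusted p of 1.00 in edgeR. Rxrb had 1 and 189 counts against 410 and 519 (log2 fold change 2.10, SE 2.83, edgeR adjusted p 1.00). Of the 6 receptor genes, Rara was therefore the one at no more than 3 counts in each brain library that reached 64 in each dura mater library.

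Breakdown of retinoic acid was represented by Cyp26b1, whose log2 fold change was the largest of the 5 tested genes. The gene, which encodes a hydroxylase that clears retinoic acid (chromosome 6, 84571414 to 84593908, minus strand), was counted 0 and 3 times in brain ECs, against 2668 and 4870 times in dura mater ECs. The dura mater level was 199 and 298 CPM, and each dura mater library lay far above both brain libraries, which stood at or under 3 counts. Over the pooled counts the ratio was 2343 (exact 95% interval 801 to 11362, counting error only). The log2 fold change was 9.95 (SE 1.37, edgeR adjusted p 0.0461), the 21st highest of the 9347.

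The Cyp26b1 call stood close to the threshold. It was kept in 9 of 15 alternatives, among them DESeq2 (adjusted p 6.4e-15), and the adjusted p ranged up to 0.172. It was lost in limma-voom (adjusted p 0.0699), and without brain replicate 1 (0.0626), brain replicate 2 (0.0601) or dura mater replicate 2 (0.172). The log2 fold change stayed between 9.41 and 11.34 in the 15. Over all genes these exclusions left 0, 5 and 54 calls, against 57 with the 4 libraries.

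**Figure D2:**
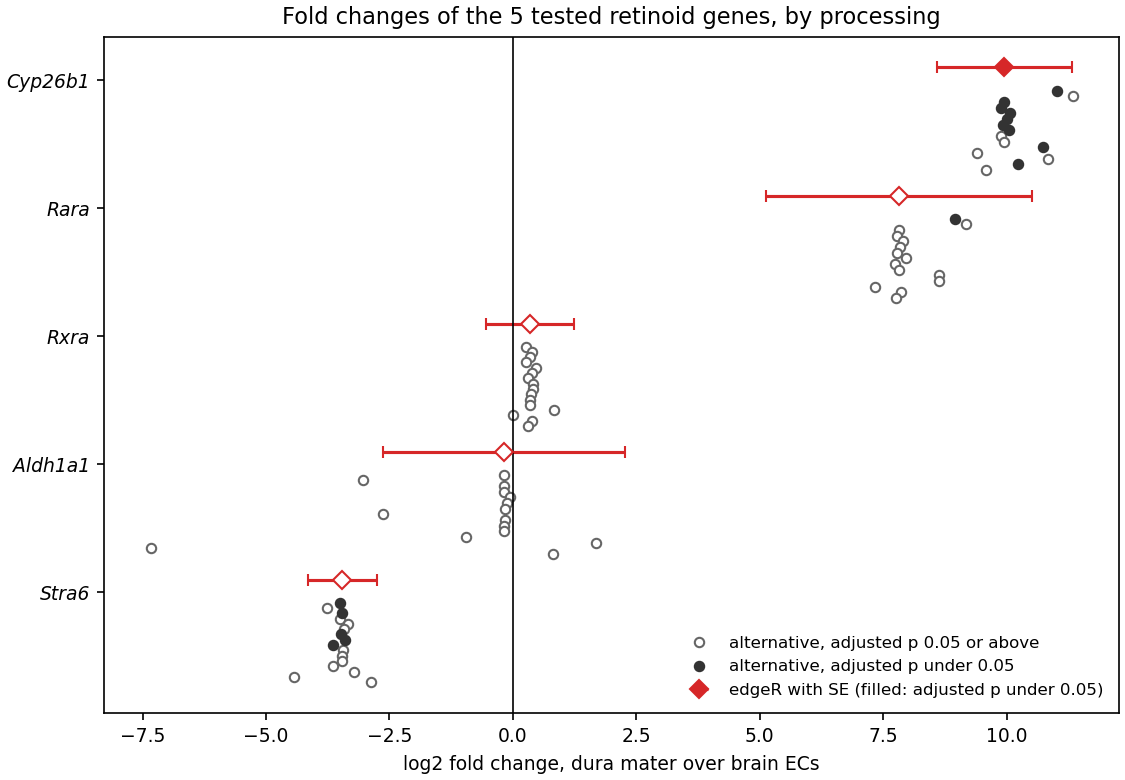
Log2 fold change of dura mater over brain ECs for the 5 tested genes. Red diamonds with bars give the edgeR value and its SE, and circles below give the alternatives, filled where the adjusted p was under 0.05. Cyp26b1 and Rara lie above 0 and Stra6 below 0 in every alternative, while Aldh1a1 and Rxra cross 0.

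The profiles nearest to Cyp26b1 were those of Gpm6a (0.26) and Col15a1 (0.34). Gpm6a, a membrane glycoprotein, had 0 and 1 counts in brain ECs against 2228 and 3823. Col15a1, a basement membrane collagen, had 0 counts in brain ECs against 2872 and 5366. Both rose in dura mater ECs (edgeR adjusted p 0.0286 and 0.0248). The pattern of Cyp26b1 and Rara, at most 3 counts in both brain libraries and at least 64 in both dura mater libraries, held for 676 of the 13660 symbols with a count (4.95%), and the reverse pattern for 44 (0.322%). For Rxra, the nearest profiles were those of Yipf5, Lamc1 and Taf11, all within 0.15.

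**Figure D3:**
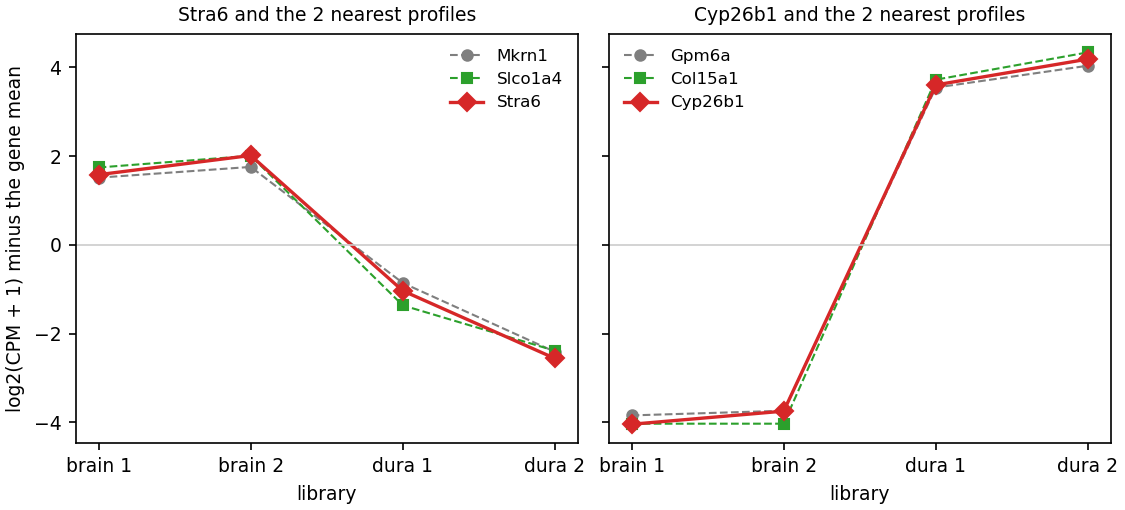
Log2(CPM + 1) minus the gene's mean over the 4 libraries, for Stra6 (left) and Cyp26b1 (right) in red and the 2 genes with the nearest profiles in dashed lines. Stra6 and its neighbours lie above 0 in the brain and below 0 in the dura mater libraries, and Cyp26b1 and its neighbours show the opposite order.

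The markers of lymphatic endothelium, which a CD31 sort can include, were counted with Cyp26b1 in dura mater ECs. Lyve1 was at 0 in both brain replicates and at 911 and 1776 counts in those of the dura mater, Prox1 had 0 and 0 against 492 and 125, and Ccl21a, on 1 of its 2 lines, 0 and 0 against 883 and 3378. Reln had 1 and 0 counts against 0 and 502, and Pdpn 3 and 7 against 3 and 45. Flt4, counted 1777 and 1905 times against 2384 and 4018 times, made up nearly all of the brain sum. The list summed to 123 and 145 CPM in the brain and 348 and 603 CPM in the dura mater libraries. All 4 of its tested genes had a log2 fold change above 0 (median 8.32) and none passed over all genes. Lyve1, Prox1 and Ccl21a entered the test through the dura mater alone, which fixes their direction, and Flt4 had a log2 fold change of 0.67. Those 3 had an unadjusted edgeR p under 0.05, where 7.04% of all genes tested were higher at that level. The same 3 passed in DESeq2, where 9.02% of its genes passed in either direction. Genes of other cells were also counted mainly in the dura mater, among them the stromal genes Col1a2 and Dcn given above. Of the 8 mural cell genes listed, all tested, 6 had a log2 fold change above 0 and 2 below. One of the 6, Kcnj8, had 0 counts in both brain libraries against 468 and 410, its direction fixed by the filter. The part of lymphatic, stromal or mural cells in the Cyp26b1 and Rara values was not tested.

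Set side by side, 3 of the 5 tested genes had groups that did not overlap (Stra6, Rara and Cyp26b1), where 43.1% of all genes tested did not. The same 3 had an unadjusted edgeR p under 0.05: Rara and Cyp26b1 higher in dura mater ECs, as 7.04% of all genes tested were at that level, and Stra6 lower, as 2.97% were. They also passed in DESeq2, against 9.02% of the genes to which it gave an adjusted p. The log2 fold change was above 0 for 3 of the 5, against 49.8% of all genes tested. Rara and Cyp26b1, at no more than 3 counts in each brain library, entered the test through the dura mater alone. The filter thus fixed their direction and their lack of overlap, as it did for 8.88% of all genes tested.

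The wider pathway was described by 6 lists of genes, 74 symbols besides the 9, of which 55 had a count in any library and 43 were tested. In edgeR, 0 of the 43 reached an adjusted p under 0.05. Of the 43, 12 had an unadjusted p under 0.05 and all 12 were higher in dura mater ECs, where 7.04% of all genes tested were higher at that level and 2.97% lower. DESeq2 passed 9, again all higher, where it passed 9.02% of its genes in either direction. Among the 43, Rbp7, Cd36, Adh1, Rdh12 and Pparg had at most 3 counts in both brain libraries and so entered the test through the dura mater alone, which fixes their direction. This held for 8.88% of all genes tested, and the reverse, in the dura mater, for 0 of the 43 and 0.61% of all. The median log2 fold change of the 43 was 0.80, with 28 above 0, against a median of −0.01 over all genes tested. From each list at most the 2 genes of lowest p are named, and any further gene was chosen after its values were seen.

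Storage and transport of retinoids had the highest median log2 fold change of the 6 lists, 6.49, with 6 of 7 tested genes above 0 and 5 higher at an unadjusted p under 0.05 (7.04% over all genes). Rbp7 and Cd36 are among the 5, with the direction fixed by the filter. Ttr, transthyretin, which holds the Rbp4 protein in blood, was counted 0 and 45 times in brain ECs against 19738 and 13352 times (log2 fold change 9.28, SE 1.82, edgeR adjusted p 0.132). Ttr is also the most abundant transcript of the choroid plexus, and 7 markers of that tissue were listed, Ttr among them. Of the others, Enpp2 was higher in both dura mater libraries (2109 and 235 counts against 5123 and 3279, edgeR adjusted p 0.598). Folr1, Clic6, Kl, Prlr and Kcnj13 had at most 2 counts in a brain library, and in the dura mater Folr1 had 147 and 0, Clic6 0 and 63, Kl 0 and 70, Prlr 0 and 143 and Kcnj13 0 and 0. Their part in the Ttr values was not tested. Lpl, a lipase that also frees retinyl esters from lipoproteins, had 10 and 25 counts against 1534 and 2314 (log2 fold change 6.49, SE 1.37, edgeR adjusted p 0.164). The cellular retinol-binding gene Rbp7 was also counted mainly in the dura mater, 0 and 1 times in brain ECs against 386 and 666 times. Lrat, which esterifies retinol for storage, had 0 counts in the 4 libraries.

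Of the 18 oxidoreductases of retinol and retinal listed, 8 were tested, with a median of 3.56 and 1 higher at an unadjusted p under 0.05 (7.04% over all genes). That 1 was Adh1. For Adh1 and Rdh12 the filter fixed the direction. Of the 8, 6 had a log2 fold change above 0 and 2 below, Dhrs4 and Rdh11. Adh1, an alcohol dehydrogenase, had 0 counts in brain ECs against 599 and 142, at least 123-fold higher against 3 counts per library (edgeR adjusted p 0.466). Rdh12, a retinal reductase, was counted 0 and 1 times against 294 and 326 times, with an edgeR adjusted p of 0.470. Dhrs3, which reduces retinal back to retinol, had 1 and 165 counts against 1289 and 2506, with an adjusted p of 0.522 in edgeR. Rdh10, the dehydrogenase that feeds retinal to the Aldh1a enzymes in the embryo, had 14 and 0 counts against 254 and 4. Dhrs4, a reductase of retinal, was lower in both dura mater libraries, with 1092 and 817 counts against 1 and 366 (edgeR adjusted p 0.946), and Rdh11, another retinal reductase, had 817 and 1 against 0 and 221.

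In the list of other binding proteins, receptors and catabolic enzymes, the 3 tested genes (Rarg, Rxrb and Fabp5) had a median of 0.80, and Cyp26a1, Cyp26c1 and Crabp1 had 0 counts in the 4 libraries. Cyp26b1 was therefore the only counted gene of the Cyp26 family. The 12 receptor coregulators were all tested and had a median of −0.13, with Med1 (43 and 168 against 1417 and 1557 counts, edgeR adjusted p 0.466) and Crebbp (178 and 10 against 1147 and 1028, adjusted p 0.629) the lowest in p. Of the receptors that pair with retinoid X receptors, 6 were tested, with a median of 1.40, 4 above 0 and 2 below. Nr4a1 had 9717 and 2546 counts against 39478 and 44466 (log2 fold change 2.72, SE 0.60, edgeR adjusted p 0.189). Pparg, with its direction fixed by the filter, had 1 and 0 against 355 and 549 (edgeR adjusted p 0.466). Ppard had the lowest log2 fold change of the 43, −3.86 (SE 1.72, edgeR adjusted p 0.476), with 1406 and 814 counts in brain ECs against 30 and 137.

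Genes known to respond to retinoic acid had a median of 0.95 over 10 tested, with 6 above 0 and 4 higher at an unadjusted p under 0.05 (7.04% over all genes). Thbd, thrombomodulin of the endothelial surface, was counted 7716 and 7136 times in brain ECs against 14414 and 19285 times, at 536 ± 5.02 and 1128 ± 75.3 CPM (SD, n = 2). Its log2 fold change was 1.07 (SE 0.31) and its edgeR adjusted p 0.339. Nrip1, another gene of the list, was lower in both dura mater libraries, with 723 and 689 counts against 119 and 89 (edgeR adjusted p 0.797).

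**Figure D4:**
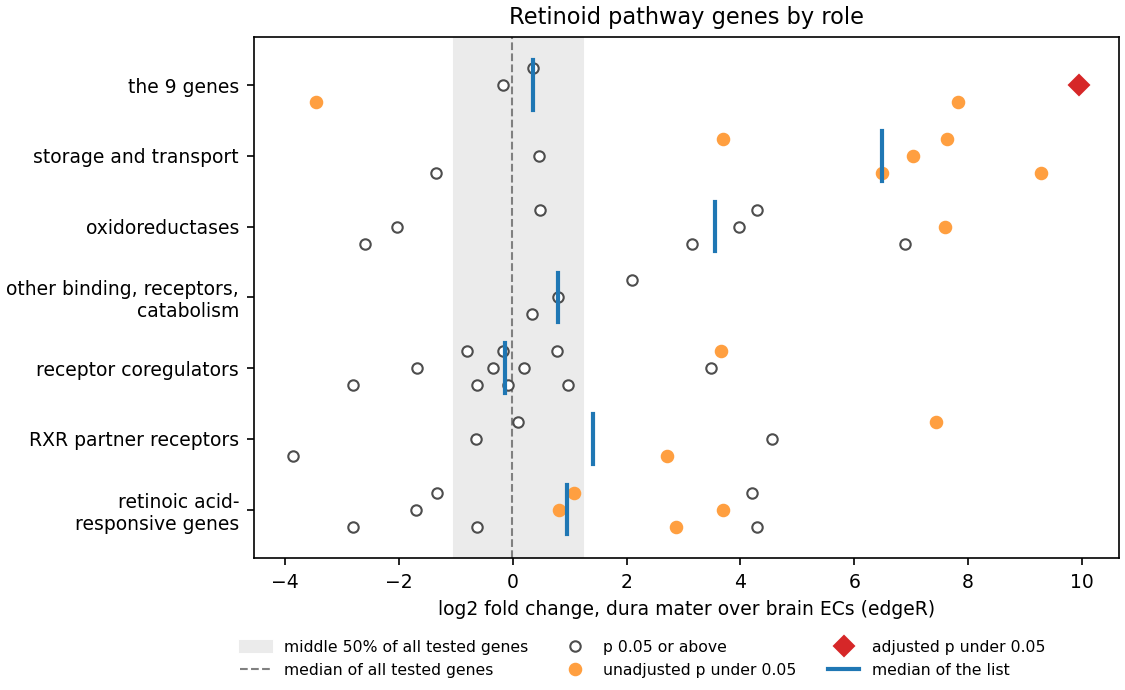
Log2 fold change of dura mater over brain ECs for each tested gene of the 9 and of the 6 pathway lists, with the median of each list in blue. The grey band spans the quartiles of all 9347 genes tested, from −1.03 to 1.24. Cyp26b1 is the red diamond, the 1 gene past the adjusted threshold, and genes with an unadjusted p under 0.05 are orange.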

How the data were processed

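RNA of sorted brain and dura mater ECs (2 libraries each) had been made into libraries with a Lexogen QuantSeq kit, which reads 3′ ends, then read on an Illumina NextSeq. For each library the authors deposited raw counts, whole numbers per gene symbol, not scaled. The methods name TopHat and cufflinks, and the submitters' processing notes name Bowtie2, edgeR and the build mm10. The counting step, strand and molecular identifiers are not given in the sources used here. A 3′ method gives counts that do not scale with transcript length, and levels are compared here only between libraries.

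Groups came from the titles. Counts were fitted over all genes with edgeR 4.0.16 (TMM scaling, filterByExpr, quasi-likelihood test, prior count 2, two-sided, Benjamini-Hochberg adjustment over 9347 genes, threshold 0.05), where SE is the log2 fold change over the root of F. The fits were tested on simulated data. With a narrow spread between replicates all tools recovered nearly all changed genes. With a wide one, the same for every gene and near the common one of these libraries, edgeR passed none of the changed genes. In that setting 94.9% and 63% of DESeq2 calls were false, at log2 changes of 3 and 10. In the libraries themselves the spread differed by gene (SE 0.24 for Mgp, 2.70 for Rara) and edgeR passed 57. The simulated shares therefore do not give the share of false calls in these data. CPM are counts over the TMM-scaled library size. Of the 23282 lines, 9622 held 0 in each library, and 35 symbols stood on 79 lines, each tested as its own. Libraries held 13518973 to 16096203 counts. Intervals and floors (3 counts) cover counting error only. With 2 libraries a group, an exact permutation test cannot reach 0.05.

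All 9 genes are described. From each of the 6 pathway lists, the genes past the threshold are named or, where none passed, the 2 with the smallest unadjusted p, and for the 3 of the 9 with the highest mean CPM, the 3 nearest profiles. Of the genes so chosen, 2 are not reported here. The 9 genes and the lists were chosen with earlier results of these data known, so no list is independent support. Of the marker lists, mural cells summed to 621 to 1115 CPM per library, leukocytes to 30.9 to 52.1 CPM and astrocytes to 52.2 to 354 CPM, and osteoblast, neuron and oligodendrocyte genes were listed as well.

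Alternatives were DESeq2 1.42.0, limma-voom (limma 3.58.1), edgeR's newer dispersion estimate, other scalings, filters and prior count, a replicate block, thinning to 13518973 counts, removal of the 10 most counted genes per library, and each library left out. The titles number the libraries, but like-numbered libraries did not deviate together from their group means (r = −0.0153 across genes), so the numbers were not read as pairs.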

Additional observations from a re-analysis of the deposited data

How the results depend on the processing

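The number of genes that differed moved from 57 to 810 in DESeq2, 305 with the newer dispersion estimate, 326 with no filter, 141 with at least 10 counts in every library (75 higher, 66 lower) and 224 with the replicate block, and limma-voom gave 80 (40 in each direction). Leaving out 1 library gave 0 to 54. Of the 9 genes, 1 differed in the edgeR test, 3 in DESeq2, 2 with the newer dispersion estimate, with no filter and with the replicate block, and 0 in limma-voom, after thinning and without the most counted genes (0 to 1 with a library left out). With at least 10 counts in every library the 1 was Stra6, and Aldh1a1, Rara and Cyp26b1 gave no value, since they fall below it. The pathway lists, at 0, gave 9 in DESeq2, 2 with at least 10 counts in every library and 3 with the replicate block.

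Stra6 passed in DESeq2 (log2 fold change −3.50), with the newer dispersion estimate (−3.45), with no filter (−3.47), with at least 10 counts in every library (−3.40) and with the replicate block (−3.63), and Rara in DESeq2 (8.96). Cyp26b1 did not pass in limma-voom (11.34), after thinning (9.88) or without the most counted genes (9.95). With 1 library left out, where the lone library is taken to vary like the others, log2 fold changes ran from 9.41 to 10.84 for Cyp26b1, from −7.34 to 1.67 for Aldh1a1 and from −0.0062 to 0.84 for Rxra, and the signs of Aldh1a1 and Rxra turned. The causes were not tested. With 2 libraries a group and a coefficient of variation of 1.39, an adjusted p over the threshold does not show that levels were alike.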
